A study of Mus musculus with 38 samples.

Results

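Measured here were 10 genes that are transcribed in response to fibroblast growth factor (FGF) receptors and the mitogen-activated protein kinase (MAPK) cascade. They were the transcription factor genes Egr1, Fos, Etv4 and Etv5, the phosphatase genes Dusp5 and Dusp6, and the inhibitor genes Spry1, Spry2, Spry4 and Spred1. The genes were taken by their symbol from a count table of 55487 genes. All 10 passed the filter on low counts in each of 3 experiments, as did 13974 genes in all.

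The series holds RNA-Seq of mouse kidney after recombinant human FGF23 or a PBS-BSA vehicle, and asked how the kidney responds to the hormone in health and in disease. In the first experiment, male C57BL/6JRj mice of 10 weeks were healthy or had anti-glomerular basement membrane (anti-GBM) disease, an immune glomerulonephritis raised by immunization with sheep IgG and nephrotoxic serum. They received 6 daily intravenous injections of 1 µg FGF23 (3 healthy and 3 anti-GBM mice) or vehicle (4 and 4). In the second, female BALB/c mice of 10 weeks were healthy or had Adriamycin nephropathy, a toxic podocyte injury after a single injection of doxorubicin. A single dose of 1 µg FGF23 or of vehicle was given, and the kidney was taken 24 h later, with 4 mice in each of 4 groups. In the third, precision-cut kidney slices from male DBA/2J mice of 23 weeks fed adenine, a model of toxic tubulointerstitial disease, were cultured with 200 ng/mL FGF23 or vehicle (4 samples each). The labels give 1 h of exposure for the slices where other text on the study has 24 h, so the time is uncertain, and there were no slices from healthy mice. The C57BL/6 kidneys too were taken 24 h after the last injection. The libraries were made from pieces of whole tissue, so fewer cells of a type and less RNA per cell cannot be told apart.

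FGF23 is a bone hormone that acts on the renal tubule through an FGF receptor and the co-receptor Klotho. The receptor recruits adaptors that start the RAS, RAF, MEK and ERK chain of kinases. Active ERK switches on immediate early genes such as Egr1 and Fos within minutes, and the ETS-family factors Etv4 and Etv5 later. The same signal induces its own brakes. Dusp5 encodes a nuclear and Dusp6 a cytoplasmic phosphatase that inactivates ERK, the Sprouty proteins of Spry1, Spry2 and Spry4 block signaling upstream of ERK, and Spred1 works on RAS together with neurofibromin. Egr1 is in common use as a readout of FGF23 activity in the kidney.

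The total count per library ranged from 13704248 to 23630210 for C57BL/6 mice, from 15665050 to 27583911 for BALB/c mice and from 11186925 to 16254987 for slices. Levels are given as CPM, the count of a gene relative to the total of its library, scaled within an experiment by the trimmed mean of M values (TMM). Differences are log2 fold changes from edgeR's quasi-likelihood test with Benjamini-Hochberg adjustment over all genes tested, called at an adjusted p below 0.05. Mice are named by the number that their column carries. In healthy C57BL/6 mice under vehicle, the 5 proximal tubule markers summed to 9752 to 12795 CPM and the 5 tubule injury markers to 16.3 to 20.5 CPM. In the slices under vehicle these sums were 246 to 362 CPM and 1513 to 2566 CPM.

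The sequence before the transcription start of 7 of the 10 genes was matched by symbol in RefSeq (GRCm38.p6). In Dusp5, which differed most clearly between diseased and healthy mice below, 2 CArG boxes, the element bound by serum response factor, lay end to end at 82 to 73 and 72 to 63 bases before the start, and the CRE core TGACG lay on the other strand at 55 to 51 bases before it. A CArG box was in 1.63% of 32851 promoter windows (250 bases before to 50 after the start) searched on both strands, and of the 7 members searched Dusp5 alone had a match. Egr1, Spry4 and Etv4 were not searched. In Fos, whose level varied most between mice of a group, the CRE core was at 129 to 125 and 66 to 62 bases before the start, and the ETS core CGGAAG at 225 to 220. Spry2, which varied together with Fos and Egr1, held none of the motifs in its window. The CRE core was in 20.8% of all windows and in those of 2 members (Fos and Dusp5), the ETS core was in 16.9% of all windows and in those of 3 (Fos, Dusp6 and Spred1), and the AP-1 site TGANTCA was in 7.81% of all windows and in none of the windows of the 7 members searched. These are matches of letters in a short window and not measured binding sites. The 250 bases before the start are shown for these 3 genes, with the matches in capitals, at chr19:53528895-53529144 on the plus strand (Dusp5), chr12:85473640-85473889 on the plus strand (Fos) and chr14:105896820-105897069 on the minus strand (Spry2).
Dusp5: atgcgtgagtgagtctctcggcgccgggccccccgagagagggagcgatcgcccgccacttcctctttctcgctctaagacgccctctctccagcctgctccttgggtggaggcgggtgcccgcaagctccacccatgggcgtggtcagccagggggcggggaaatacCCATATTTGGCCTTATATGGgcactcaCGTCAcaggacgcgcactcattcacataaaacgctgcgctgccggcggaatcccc
Fos: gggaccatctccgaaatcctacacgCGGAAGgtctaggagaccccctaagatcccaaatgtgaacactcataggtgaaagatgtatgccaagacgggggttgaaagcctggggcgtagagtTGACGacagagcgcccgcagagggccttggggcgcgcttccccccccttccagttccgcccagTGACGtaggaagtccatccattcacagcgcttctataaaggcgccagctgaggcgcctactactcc
Spry2: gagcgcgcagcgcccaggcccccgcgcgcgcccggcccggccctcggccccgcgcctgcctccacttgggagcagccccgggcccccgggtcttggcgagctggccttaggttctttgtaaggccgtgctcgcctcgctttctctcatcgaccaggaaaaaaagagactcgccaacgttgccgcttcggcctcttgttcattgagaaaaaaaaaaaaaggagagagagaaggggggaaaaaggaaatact

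The levels of the 10 genes differed widely between the experiments. On a scale common to all 38 libraries, the median of Dusp5 in the slices was 23.4 times that in the anti-GBM experiment and 32.6 times that in the Adriamycin experiment. Fos was 21.5 and 13.5 times, Etv4 9.49 and 8.70 times, and Egr1 6.68 and 5.76 times as high in the slices. The Sprouty genes were 2.12 to 3.25 times as high, Spred1 1.77 and 1.64 times and Dusp6 1.73 and 1.30 times. Etv5 was the exception, at 1.38 times the median of the anti-GBM and 0.816 times that of the Adriamycin experiment. For Dusp5, Etv4 and the 3 Sprouty genes every slice library lay above every in vivo library. Scaled within each experiment, the same held for 7 genes. The share of all genes for which this held is not reported here, so these counts are not read as particular to the members. Strain, sex, age, the kind of injury and the culture itself cannot be told apart here, and no test was made.

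**Figure D1:**
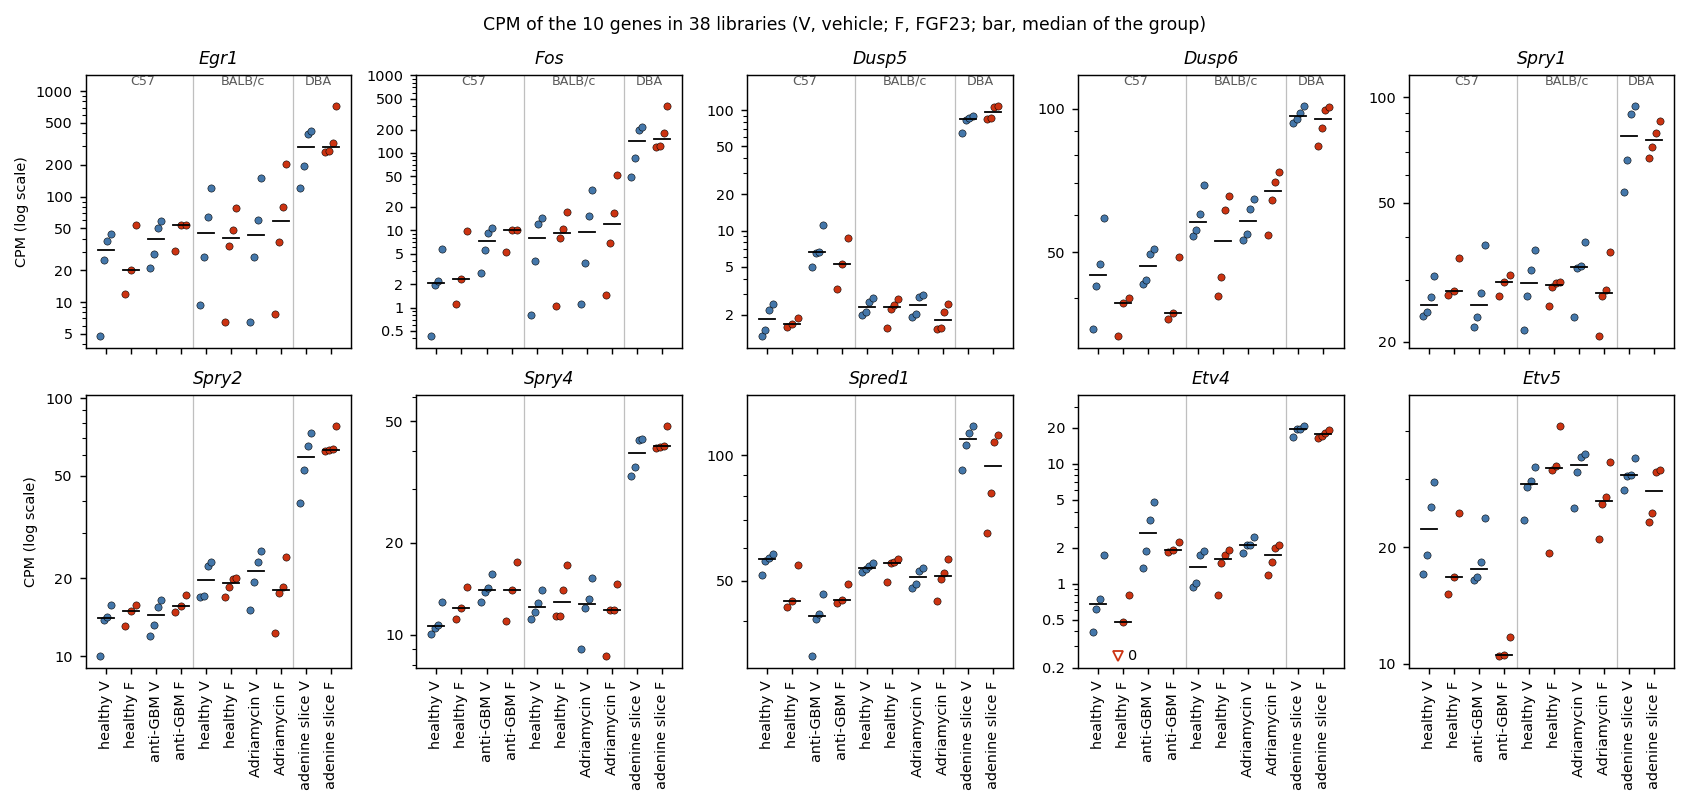
CPM (log axis, scaled within each experiment) of each gene in every library, in 10 groups of 3 or 4, with V for vehicle, F for FGF23 and a bar at the group's median. Dusp5 in anti-GBM disease, at 3.25 to 11.1 CPM, lies above all healthy C57BL/6 mice, Etv5 is lowest in anti-GBM mice given FGF23, and Egr1 and Fos spread widely within the BALB/c groups. The open triangle is the library with 0 Etv4 reads.

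None of the 10 genes passed the test for a response to FGF23 in any of the 5 settings (edgeR). In healthy C57BL/6 mice, 0 of 10 passed the test with edgeR (0% of 15859 genes did), 0 had an unadjusted p below 0.05 (4.34% did) and DESeq2 called 0. The log2 fold changes ran from -0.88 (Etv4) to 0.78 (Fos), with 5 genes higher and 5 lower. Dusp6, the ERK phosphatase, was 34.5, 42.4, 47.2 and 59.0 CPM under vehicle and 33.3, 39.1 and 40.04 CPM under FGF23. Its groups overlapped, and its log2 fold change of -0.29 (SE 0.16) had a 95% interval of -0.62 to 0.05. Spred1 was 51.8 to 58.1 CPM under vehicle and 43.3, 44.8 and 54.6 CPM under FGF23. Its log2 fold change was -0.22 (SE 0.11, adjusted p = 0.996). Egr1 was 4.75, 25.0, 37.9 and 44.3 CPM under vehicle and 12.02, 20.3 and 54.1 CPM under FGF23. That spread left an interval of -1.26 to 1.32, so that a difference of 1 on the log2 scale in either direction was not detectable. Fos, at 0.428 to 5.70 CPM under vehicle and 1.13, 2.36 and 9.89 CPM under FGF23, had an interval of -0.81 to 2.37.

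In anti-GBM mice, 0 of 10 genes passed the test (0.24% of 15859 did). The gene nearest to it was Etv5, an ETS factor that in the kidney is known as a target of growth factor receptors. Etv5 was 16.5, 16.7, 18.4 and 23.9 CPM under vehicle and 10.5, 10.5 and 11.8 CPM under FGF23. The groups did not overlap, as was true of 9.22% of all genes in this comparison. The log2 fold change was -0.79 (SE 0.21, 95% interval -1.24 to -0.35, unadjusted p = 0.00188, adjusted p = 0.205 with edgeR). It was the 1 member of 10 with an unadjusted p below 0.05, against 12.6% of all genes. DESeq2 called it (adjusted p = 0.0313), and over the other settings the adjusted p was 0.0893 to 0.229, and 0.108 to 0.536 with 1 mouse left out.

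Red blood cell and neutrophil marker sums had lower medians in the same FGF23-treated mice. The medians of leukocyte and macrophage markers and of T and NK cell markers were higher. The 5 red blood cell markers summed to 195 to 668 CPM under vehicle and 95.8 to 161 CPM under FGF23, and the 5 neutrophil markers to 9.01 to 18.2 and 5.99 to 9.16 CPM, with Ly6g at 0 under FGF23. The 5 fibroblast markers summed to 972 to 1454 and 1377 to 1902 CPM. The 5 leukocyte and macrophage markers summed to 168 to 264 and 241 to 252 CPM. The 5 T cell and NK cell markers summed to 4.54 to 8.18 and 7.87 to 9.31 CPM. Of the red blood cell, neutrophil and fibroblast lists 0 genes passed the test. The outcome for the leukocyte and macrophage list and for the T and NK cell list is not reported here. The part of any of these cell types in the Etv5 values was not tested. Etv4, the relative of Etv5, was 1.35, 1.89, 3.38 and 4.83 CPM under vehicle and 1.83, 1.90 and 2.23 CPM under FGF23, and did not pass (log2 fold change -0.53, SE 0.54, and -0.14 without NTS7). Egr1 (28.4, 50.6, 58.7 and 20.9 CPM under vehicle, 54.2, 30.8 and 54.1 CPM under FGF23) had an interval of -1.03 to 1.49 and Dusp6 one of -0.53 to 0.13.

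Whether FGF23 acted differently in diseased C57BL/6 mice was tested as an interaction, and 0 of 10 genes passed (0.0315% of genes did, DESeq2 called 0 members). Spred1 was the 1 member with an unadjusted p below 0.05, which 8.3% of genes had (interaction 0.41 on the log2 scale, SE 0.15, unadjusted p = 0.0173, adjusted p = 0.522 with edgeR). The interaction of Etv5 was -0.52 (SE 0.29, 95% interval -1.14 to 0.09, adjusted p = 0.650). A different response of Etv5 in diseased and healthy mice was therefore not shown.

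**Figure D2:**
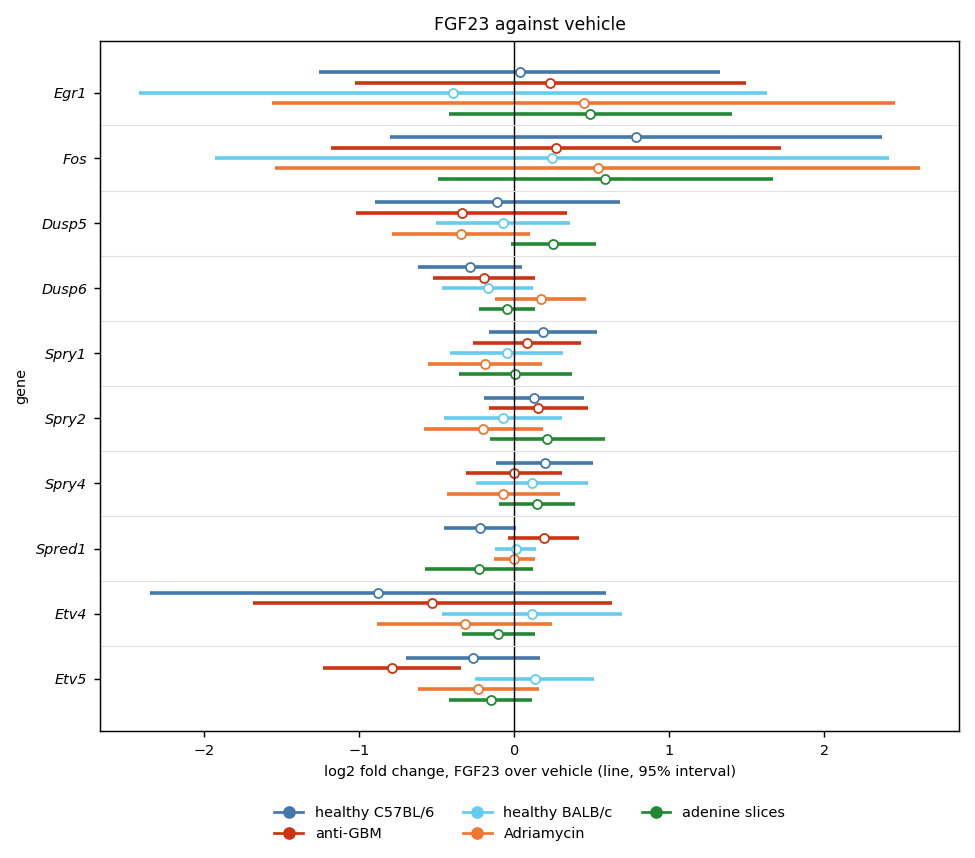
Log2 fold change of FGF23 over vehicle (point) with its 95% interval (line) for 10 genes in 5 settings. All points are open because 0 of 10 genes passed the test in any setting, and the interval of Etv5 in anti-GBM mice, -1.24 to -0.35, is the one that leaves out 0.

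In BALB/c mice a day after a single dose, 0 of 10 genes passed in healthy mice (0% of 16020 genes) and 0 of 10 in mice with Adriamycin nephropathy (0.0375%). At an unadjusted p below 0.05 there were 0 members in either, against 6.69% and 5.69% of genes, and DESeq2 called 0 in both. In healthy mice the log2 fold changes ran from -0.40 (Egr1) to 0.24 (Fos), and in Adriamycin nephropathy from -0.35 (Dusp5) to 0.54 (Fos). Dusp6 was 54.2 to 69.1 CPM under vehicle and 40.5 to 65.7 CPM under FGF23 in healthy mice, and 52.9 to 64.7 and 54.4 to 73.8 CPM in Adriamycin nephropathy. The groups overlapped in both, with intervals of -0.47 to 0.12 and -0.13 to 0.46. Dusp5 in Adriamycin nephropathy was 1.92, 2.02, 2.80 and 2.92 CPM under vehicle and 1.54, 1.56, 2.09 and 2.44 CPM under FGF23 (log2 fold change -0.35, SE 0.21, adjusted p = 0.951). In the interaction of FGF23 and Adriamycin nephropathy 0 of 10 genes passed (0% of genes), 0 had an unadjusted p below 0.05 (5.11% did) and DESeq2 called 0.

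In the adenine slices FGF23 gave no change that passed the test (0 of 10 genes, 0% of 15090 genes, 0 with an unadjusted p below 0.05 against 4.89%, 0 with DESeq2). Dusp5 came nearest, at 64.1, 82.9, 86.6 and 89.7 CPM under vehicle and 84.1, 86.5, 106 and 108 CPM under FGF23. The ranges overlapped, and the log2 fold change was 0.25 (SE 0.12, 95% interval -0.02 to 0.52, adjusted p = 0.849). Egr1 was 122, 194, 395 and 417 CPM under vehicle and 267, 270, 326 and 720 CPM under FGF23, and Fos was 48.6, 85.6, 197 and 216 CPM under vehicle and 119, 122, 181 and 399 CPM under FGF23. Slice F1 stood highest in both, and without it the log2 fold change of Egr1 fell from 0.49 to 0.03 and that of Fos from 0.59 to 0.04. Dusp6 differed little, with 93.2 to 101 CPM under vehicle and 83.5 to 101 CPM under FGF23 and an interval of -0.23 to 0.13. Spred1 was 92.5 to 117 CPM and 65.2 to 112 CPM (log2 fold change -0.23, SE 0.16, and -0.095 without slice F1). The 5 collecting duct markers summed to 27.7 to 75.4 CPM (median 53.7) under vehicle and 58.8 to 434 CPM (median 77.3) under FGF23. Of these markers 0 of 5 passed the test, and their part in these values was not tested.

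Anti-GBM disease changed 5 of the 10 genes. Averaged over vehicle and FGF23, Dusp5, Etv4 and Spry4 rose and Etv5 and Spred1 fell in anti-GBM mice against healthy mice, while Egr1, Fos, Dusp6, Spry1 and Spry2 did not pass the test. This comparison called 48.3% of 15859 genes, 23.6% upwards and 24.7% downwards, so that the 5 of 10 members were near the share of all genes. The median log2 fold change of the 10 was 0.18, and that of all genes -0.02. With a log2 fold change above 1 required as well, 2 of 10 remained, Dusp5 and Etv4, against 10.1% of genes.

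Dusp5, the nuclear ERK phosphatase, showed the clearest difference. It was 1.33, 1.498, 2.21 and 2.45 CPM in healthy mice under vehicle and 1.59, 1.67 and 1.88 CPM in healthy mice under FGF23. In anti-GBM mice it was 4.98, 6.55, 6.65 and 11.1 CPM under vehicle and 3.25, 5.33 and 8.71 CPM under FGF23. Every diseased mouse was above every healthy mouse. The share of all genes for this is not reported here. Of all genes, 35.2% had no overlap under vehicle and 45.4% under FGF23. The log2 fold change was 1.86 (SE 0.24, 95% interval 1.34 to 2.39, adjusted p = 3.4e-05), a 3.63-fold rise. It was 1.98 under vehicle and 1.75 under FGF23, and the call held when any of the 14 mice was left out.

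Etv4, an ETS factor known from branching of the ureteric bud, rose from a very low level. It was 0.396, 0.618, 0.749 and 1.72 CPM in healthy mice under vehicle, 0.481 and 0.798 CPM in 2 healthy mice under FGF23 and 0 reads in the third, mouse NTS11, where 3 reads would have been 0.209 CPM. In anti-GBM mice it was 1.35 to 4.83 CPM under vehicle and 1.83 to 2.23 CPM under FGF23, and only mouse NTS4 among the healthy mice reached into that range. The log2 fold change was 1.92 (SE 0.43, adjusted p = 0.0022). The average kept its call when any mouse was left out, but the smaller comparisons did not: under vehicle (1.75, adjusted p = 0.020) the adjusted p was 0.052, 0.056 and 0.069 without NTS1, NTS2 or NTS7, and under FGF23 (2.10, adjusted p = 0.033) it was 0.060 to 0.076 without NTS10, NTS11, NTS13, NTS14 or NTS16.

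Etv5 went the other way from Etv4. It was 17.1, 19.1, 25.4 and 29.5 CPM in healthy mice under vehicle, 15.2, 16.7 and 24.6 CPM in healthy mice under FGF23, 16.5 to 23.9 CPM in anti-GBM mice under vehicle and 10.5 to 11.8 CPM in anti-GBM mice under FGF23. The fall was -0.53 on average (SE 0.14, adjusted p = 0.0075) and held when any mouse was left out. It was -0.27 under vehicle (SE 0.19, adjusted p = 0.274, and -0.078 without NTS4) and -0.79 under FGF23 (SE 0.22, adjusted p = 0.016), where the adjusted p was 0.105 without NTS9 and 0.052 without NTS14. The 3 anti-GBM mice given FGF23 were thus the lowest of the 14 mice.

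Among the RAS inhibitors, Spred1 fell and Spry4 rose by small amounts. Spred1 was 51.8, 55.8, 56.8 and 58.1 CPM in healthy mice under vehicle and 32.97, 40.6, 41.8 and 46.6 CPM in anti-GBM mice under vehicle, with no overlap. That difference (-0.46, SE 0.10, adjusted p = 0.0029) held when any mouse was left out. Under FGF23 Spred1 was 43.3 to 54.6 CPM in healthy and 44.3 to 49.1 CPM in anti-GBM mice (-0.04, SE 0.12). On average it fell by 0.25 on the log2 scale (SE 0.08, adjusted p = 0.0145), with an adjusted p of 0.053 without NTS3, 0.093 without NTS9 (where the estimate was -0.17) and 0.0502 with no filter on low counts. Spry4 was 10.1, 10.5, 10.8 and 12.8 CPM in healthy and 12.8, 13.8, 14.21 and 15.9 CPM in anti-GBM mice under vehicle (0.36, SE 0.14, adjusted p = 0.048). Under FGF23 it was 11.3, 12.2 and 14.4 against 11.1, 14.1 and 17.3 CPM, with overlap (0.16, SE 0.16). Its average of 0.26 (SE 0.10, adjusted p = 0.048) was just past the threshold, and lost the call without NTS4, NTS7, NTS10, NTS11, NTS13 or NTS16 (adjusted p of 0.051 to 0.154). Its call under vehicle was lost without NTS2, NTS3, NTS4, NTS7 or NTS10 (adjusted p of 0.059 to 0.117).

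In the vehicle mice alone 4 of 10 members passed (Dusp5, Etv4 and Spry4 upwards, Spred1 downwards) against 39.8% of genes, 19.4% upwards and 20.4% downwards. With a log2 fold change above 1, 2 of 10 passed against 9.8%, and 3 of 10 had groups without overlap against 35.2%. In the FGF23 mice alone 3 of 10 passed (Dusp5 and Etv4 upwards, Etv5 downwards) against 27.2%, 14.5% upwards and 12.7% downwards, and 3 of 10 had no overlap against 45.4%. These comparisons differ in the number of mice, 8 and 6.

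Fos and Egr1 were less clear than Dusp5. Fos was 0.428, 1.98, 2.196 and 5.70 CPM in healthy and 2.77, 5.57, 9.14 and 10.7 CPM in anti-GBM mice under vehicle, and 1.13, 2.36 and 9.89 against 9.95, 5.30 and 9.95 CPM under FGF23. The groups overlapped through NTS4 and NTS11. The log2 fold change of 1.22 (SE 0.51, adjusted p = 0.060) missed the threshold, and passed it without NTS4, NTS7 or NTS11 (adjusted p of 0.018, 0.038 and 0.0065) and with no filter on low counts (0.0198). Egr1, at 4.75 to 54.1 CPM in healthy and 20.9 to 58.7 CPM in diseased mice, gave 0.61 (SE 0.42, 95% interval -0.30 to 1.51, adjusted p = 0.255). Dusp6, Spry1 and Spry2 had narrow intervals around 0: -0.16 to 0.31, -0.23 to 0.26 and -0.12 to 0.33.

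**Figure D3:**
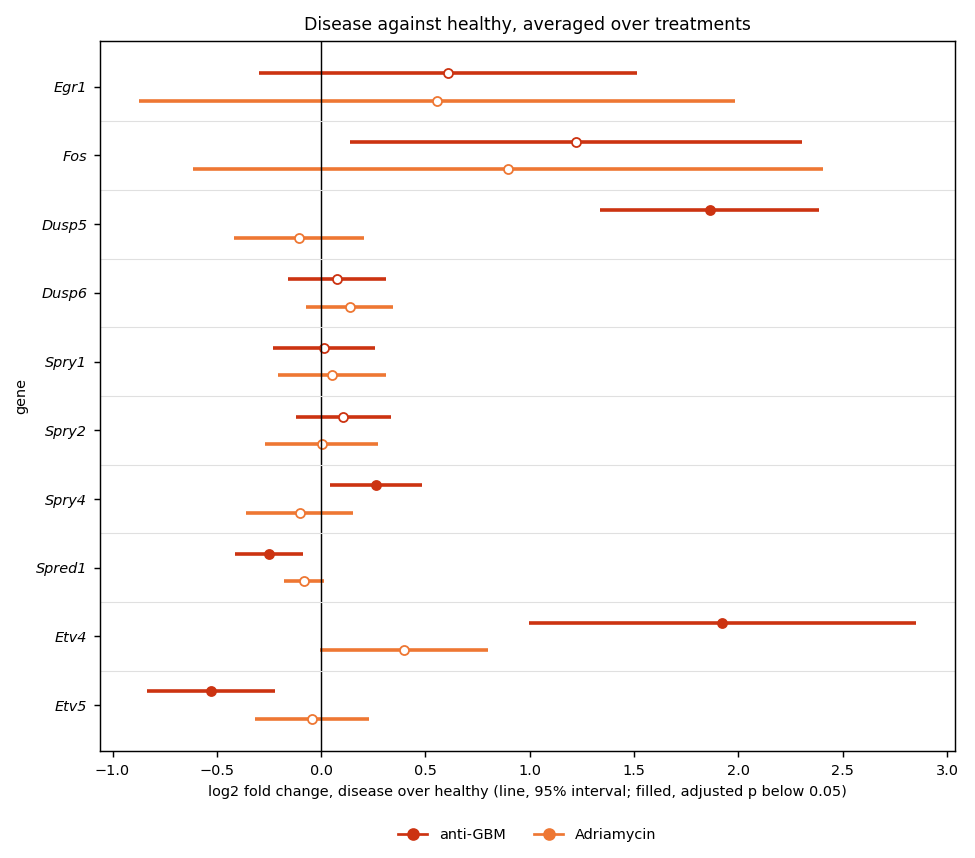
Log2 fold change of disease over healthy (point), averaged over vehicle and FGF23, with its 95% interval (line), in the anti-GBM and the Adriamycin experiment. Filled points passed the test: Dusp5, Etv4, Spry4, Spred1 and Etv5 in anti-GBM disease, and 0 genes in Adriamycin nephropathy.

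Other immediate early genes were more uniform than Egr1 and Fos in anti-GBM disease. Of 22 tested genes of a list of 23, 21 rose and 0 fell, with a median log2 fold change of 1.35. Klf6, a zinc finger factor, rose by 1.80 (SE 0.11, adjusted p = 7e-08 with edgeR), Ier5 by 1.18 (SE 0.09) and Egr2, a relative of Egr1, by 3.73 (SE 0.28). Egr2 was 0.285 to 0.976 CPM in healthy and 4.45 to 10.2 CPM in diseased mice, and Fosl1, a partner of JUN, was at most 0.141 CPM in healthy and 1.58 to 4.52 CPM in diseased mice. These and the following list counts stand beside 48.3% of all genes called, 23.6% upwards and 24.7% downwards. Of 10 other MAPK phosphatase genes, 5 rose and 1 fell, with a median of 0.24. Dusp8 rose by 2.46 (SE 0.18), Dusp10 by 1.35 (SE 0.26) and Dusp2 by 1.58 (SE 0.35), while Dusp9 fell by 1.096 on the log2 scale (SE 0.13). Of 13 tested genes among other feedback inhibitors and ETS targets, 6 rose and 5 fell, with a median of 0.27. Spsb1 and Phlda1 rose by 1.67 (SE 0.15) and 0.79 (SE 0.13), and Flrt3 fell by 1.07 on the log2 scale (SE 0.18).

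Upstream of these targets, 3 of 15 tested FGF receptors, co-receptors and adaptors rose and 7 fell, with a median of -0.18. Fgfr3 and the docking protein gene Frs3 were lower by -0.57 (SE 0.09) and -0.79 (SE 0.13), and the RAS exchange factor genes Sos1 and Sos2 by -0.47 (SE 0.09) and -0.31 (SE 0.06). Klotho (Kl), named here because FGF23 depends on it and not by the rule for named genes, fell by 0.65 on the log2 scale (SE 0.13, adjusted p = 0.0013), from 928 to 1391 CPM in healthy to 506 to 977 CPM in diseased mice. Of 17 kinases and factors of the RAS to ERK chain, 4 rose and 4 fell. Braf changed by -0.65 (SE 0.09) and Rps6ka1 by 0.27 (SE 0.06). Of 10 tested ligands of FGF and EGF receptors 4 rose and 2 fell. Fgf2 rose by 1.09 (SE 0.21) and Fgf18 by 1.06 (SE 0.26), and Egf, made by the distal tubule, fell by 0.94 on the log2 scale (SE 0.14). Areg, the ligand amphiregulin, was at most 0.0663 CPM in healthy and 0.976 to 4.18 CPM in diseased mice.

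The RNA of markers of tubule injury and of several cell types differed as well. The 5 tubule injury markers summed to 16.3 to 27.5 CPM in healthy C57BL/6 mice and 362 to 1066 CPM in anti-GBM mice, and 5 of 5 rose. The 5 leukocyte and macrophage markers summed to 88.4 to 138 CPM in healthy and 168 to 264 CPM in diseased mice, with 5 of 5 up, and the 5 fibroblast and pericyte markers to 288 to 390 and 972 to 1902 CPM, with 5 of 5 up. Of the 5 proximal tubule markers, 4 fell, and their sum was 9334 to 12795 CPM in healthy and 5488 to 10915 CPM in diseased mice. The part of these cell types in the Dusp5, Etv4, Etv5, Spry4 and Spred1 values was not tested.

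Adriamycin nephropathy left the 10 genes without a call. Averaged over treatments, 0 of 10 passed (1.94% of 16020 genes did), 0 had an unadjusted p below 0.05 (15% did) and DESeq2 called 0. Under vehicle 0 of 10 passed (0.331%), and Etv4 was the 1 member with an unadjusted p below 0.05 (8.27% of genes). It was 0.940, 1.02, 1.72 and 1.86 CPM in healthy and 1.79, 2.11, 2.11 and 2.45 CPM in diseased mice, which overlapped (log2 fold change 0.61, SE 0.27, adjusted p = 0.549). Under FGF23 0 of 10 passed (0.699%), and Dusp6 was the 1 member with an unadjusted p below 0.05, as 12.7% of genes had (0.31, SE 0.14, adjusted p = 0.365). DESeq2 called 0 members in both. Dusp5 was 2.01 to 2.77 CPM in healthy and 1.92 to 2.92 CPM in diseased mice under vehicle, and its average log2 fold change was -0.11 (SE 0.15, 95% interval -0.42 to 0.20). Of the 5 tubule injury markers, 0 rose and 1 fell in Adriamycin nephropathy.

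The disease effects of the 2 models were compared in 1 fit of the 30 in vivo libraries, which called 2 of 10 members against 41.6% of 16954 genes, both in the direction of 20.8%. Dusp5 differed by 1.97 on the log2 scale (SE 0.29, 95% interval 1.39 to 2.56, adjusted p = 4.5e-06 with edgeR) and Etv4 by 1.53 (SE 0.46, adjusted p = 0.0089). Both kept the call when any 1 of the 30 libraries was left out. Spry4 (0.37, SE 0.17, adjusted p = 0.077) and Etv5 (-0.48, SE 0.20, adjusted p = 0.062) did not pass. Spry4 passed without NTS14, Ad8, Ad12 or Ad16 and with at least 10 counts required in every library, with adjusted p of 0.031 to 0.0471, and Etv5 passed with DESeq2 and without NTS1, NTS5, NTS11, Ad6, Ad10 or Ad15, with adjusted p of 0.026 to 0.0454. The Egr1 difference was 0.06 with an interval of -1.77 to 1.88, too wide to tell. The models also differ in strain, sex, dosing and the extent of injury, which cannot be told apart.

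Egr1 and Fos differed widely between mice of the same BALB/c group. Egr1 was 9.30, 26.7, 63.8 and 120 CPM in the healthy vehicle mice Ad1, Ad2, Ad3 and Ad4, and 6.44, 34.1, 47.9 and 78.6 CPM in the healthy FGF23 mice Ad9 to Ad12. It was 6.50, 26.5, 59.7 and 150 CPM in the Adriamycin vehicle mice Ad5 to Ad8, and 7.68, 37.3, 79.3 and 206 CPM in the Adriamycin FGF23 mice Ad13 to Ad16. The highest mouse of a group was 12.2 to 26.8 times the lowest, and in each group the mouse with the lowest number had the lowest level and the mouse with the highest number the highest. Fos had the same order in all 4 groups, from 0.806 to 14.3, 1.05 to 16.96, 1.12 to 32.6 and 1.45 to 51.1 CPM, a range of 16.2 to 35.2 times.

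Of 16020 genes tested in BALB/c mice, 5 (0.0312%) had this order in all 4 groups, and 0 had the reverse order in all 4. These 5 were Fos, Egr1, Junb, Btg2 and Jun, all of them immediate early genes. Junb varied 2.47 to 6.16 times within a group, Btg2 2.08 to 3.97 times and Jun 1.92 to 5.01 times. Spry2 had the order in 3 of 4 groups, Dusp6 and Spry4 in 2, and Etv4 and Etv5 in 0. The order was noticed in the values, so it is a description and was not tested, and the labels do not say what the place of a number stands for. Over all genes, mice with the same place did not vary together (median correlation of their deviations -0.009). With the place as a term in the fit, an alternative chosen after seeing the data, the SE of Egr1 in the averaged disease comparison fell from 0.67 to 0.13 and the estimate from 0.55 to 0.31, and still 0 of 10 members passed in any BALB/c comparison. For Fos the estimate was then 0.61 (SE 0.21, unadjusted p = 0.0113, adjusted p = 0.198). With this term 2 members had an unadjusted p below 0.05 in the averaged comparison (Egr1 and Fos) and 3 in Adriamycin against healthy mice under FGF23, which were Egr1 (0.65, adjusted p = 0.223), Dusp6 (0.32, adjusted p = 0.281) and Fos (0.68, adjusted p = 0.407) by edgeR. The same held for Egr1 (0.69, SE 0.27) and Dusp6 (0.35, SE 0.15) in the interaction. It also held for Egr1 under FGF23 in Adriamycin nephropathy (0.42, SE 0.19, adjusted p = 0.999 by edgeR). In both, the fit without the term had 0 such members. The share of all genes below 0.05 with the term is not reported here. The term was chosen from the order seen in Egr1 and Fos, so these counts are not read as an effect of disease or FGF23.

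**Figure D4:**
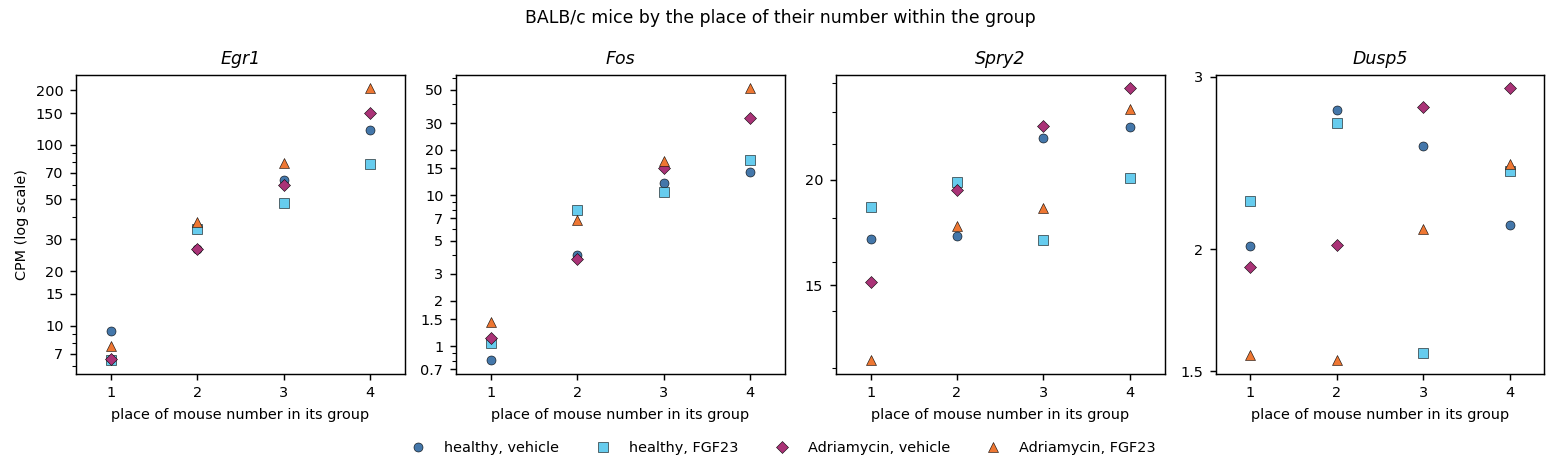
CPM (log axis) of Egr1, Fos, Spry2 and Dusp5 in the 16 BALB/c mice, by the place of the mouse's number within its group of 4. Egr1 and Fos have the same order in all 4 groups, Egr1 from 6.44 to 9.30 CPM at the first place to 78.6 to 206 CPM at the last, and Dusp5 does not.

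Within groups, the genes varied together in part. Deviations of log2 CPM from the group means were compared over the 38 libraries for 45 pairs, with 100000 permutations within groups and Benjamini-Hochberg adjustment over the pairs. Of these, 18 pairs were called, all positive, and the median Pearson r was 0.27. Pairs of other genes were not counted in the same way, so this number has no share of all genes beside it. Differences in depth and handling between libraries were not separated from it. Egr1 and Fos were close to interchangeable (r = 0.982, Spearman rho = 0.968, both with a permutation p of 1e-05, the smallest it can give, and adjusted p = 0.00011). Their r was 0.947, 0.991 and 0.996 in the anti-GBM, Adriamycin and slice experiments and 0.978 without the 2 libraries farthest from the median. Spry1 and Spry2 (r = 0.840, rho = 0.817) and Egr1 and Spry2 (r = 0.828, rho = 0.823) followed, with r between 0.697 and 0.960 and between 0.803 and 0.941 in the 3 experiments and 0.826 and 0.772 without the 2 farthest libraries, and the same p for both. Neither of these pairs with Spry2 was called in the anti-GBM experiment alone (adjusted p = 0.153 for both by permutation).

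The ETS factors stood apart from these. Etv4 with Egr1 and with Fos gave r of -0.12 and -0.13, and Etv5 with the same genes -0.02 and 0.005 (permutation p of 0.498 to 0.980 for r and 0.776 to 0.998 for rho, none called). Etv4 and Etv5 correlated with each other (r = 0.505, rho = 0.369, permutation p = 0.0192 and 0.066, adjusted p = 0.048 and 0.148), with r of 0.577, 0.609 and -0.29 in the 3 experiments and 0.422 without the 2 farthest libraries. This call was lost in each alternative tried, with adjusted p of 0.0506 with RLE scaling, 0.0676 with a prior count of 0.5, 0.056 with the place of the mouse number removed and 0.130 to 0.628 within single experiments. The 2 phosphatases, Dusp5 and Dusp6, correlated at r = 0.535 (rho = 0.533, permutation p = 0.0053 and 0.0052, adjusted p = 0.017 and 0.0195), with 0.681, 0.520 and -0.45 in the 3 experiments and 0.491 without the 2 farthest libraries. Its call was lost within each experiment (adjusted p of 0.157 to 0.375) and with the place removed (0.0892). With the place of the mouse number removed in the BALB/c groups, 7 of 45 pairs were called, and r was 0.947 for Egr1 and Fos, 0.772 for Egr1 and Spry2 and 0.802 for Spry1 and Spry2.

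**Figure D5:**
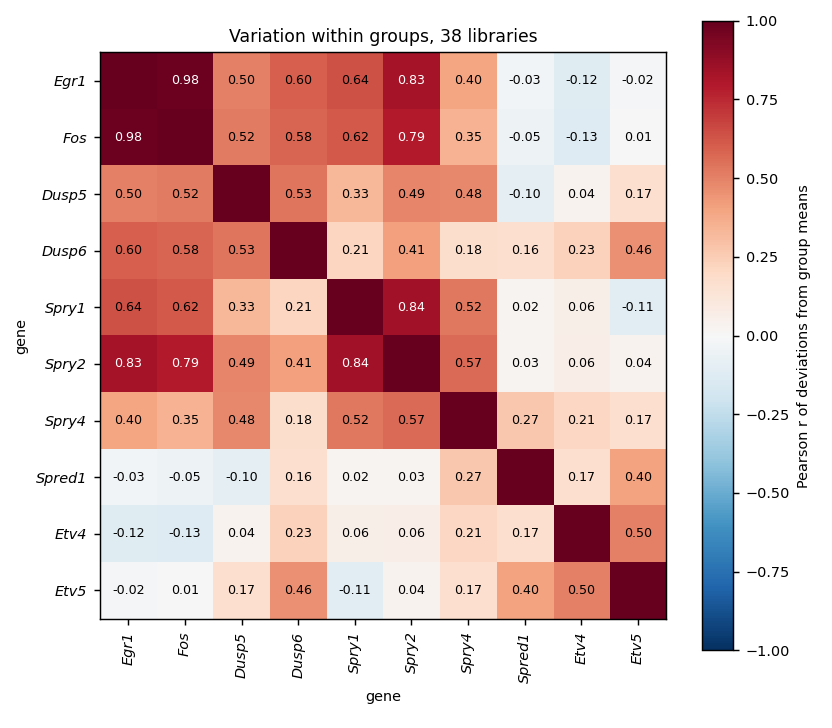
Pearson r, over 38 libraries, between the 10 genes' deviations of log2 CPM from their group means. Egr1, Fos, Spry1 and Spry2 form a block of r from 0.616 to 0.982, while Etv4 has r of 0.505 with Etv5 and -0.13 to 0.23 with the others.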

How the data were processed

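RNA-Seq libraries of 38 mouse kidney samples in 10 groups were analysed. Per the labels and the study's methods, a stranded mRNA library was sequenced in paired ends, reads were aligned to GRCm38 with STAR 2.7.9a, and the authors deposited raw counts per gene from featureCounts 1.5.1 with the Ensembl annotation. How reads shared by several genes were treated is not given in the sources used here. Columns were assigned to groups by their names. One column, mouse NTS14, is spelled differently in the table and was matched with the study's own list of animals.

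Within each experiment, genes passing filterByExpr with a minimum count of 10 were kept (15859, 16020 and 15090 genes), library sizes were scaled by TMM, and contrasts of group means were tested with the quasi-likelihood test of edgeR 4.0.16 in R 4.3.3. Intervals are 95%. A joint fit of the in vivo libraries tested the difference between disease effects. CPM were computed from the deposited counts, and log2 CPM with a prior count of 2. DESeq2 1.42.0, RLE scaling, other filters, robust estimation, left-out libraries and a replicate block were alternatives. The fits were tested on simulated data. The matched symbols covered 55141 of 55487 gene identifiers.

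The members, the pathway lists and the markers were chosen with earlier results of these data known. Named genes were the 10 members and, from each pathway list, at most 4 called genes with the smallest p in a comparison described. A few genes that this rule would name are not reported here. The text on the study counts 4 biologically independent replicates in each slice group. The labels do not say which slices came from which animal, or whether a vehicle and an FGF23 slice shared an animal. The p-values there measure the spread between these samples. The floor of 3 counts for a gene with 0 reads covers counting error only, while the intervals of fold changes include the spread between samples.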

Additional observations from a re-analysis of the deposited data

Results flagged for a closer look

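In 80 sets of 4 libraries (10 genes in 8 groups), 3 had a library far from the other 3 by Dixon's test. Chance gives about 1 in 20, so 3 of 80 is not more than chance gives. All 3 were in the slices given FGF23. Slice F1 had 720 CPM of Egr1, with 267 to 326 CPM in the others, and 77.6 CPM of Spry2, with 62.1 to 63.2 CPM in the others. Egr1 and Spry2 varied together in the slices (r = 0.941), so the flags of slice F1 are not separate events. Slice F3 had 48.0 CPM of Spry4, with 40.99 to 41.6 CPM in the others.

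The disease effect of anti-GBM minus that of Adriamycin nephropathy was 1.97 on the log2 scale for Dusp5 and 1.53 for Etv4 in the joint edgeR fit (adjusted p = 4.5e-06 and 0.0089). Dusp5 was higher in 7 of 7 anti-GBM mice than in any healthy C57BL/6 mouse, and the share of all genes for this is not reported here.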

How the results depend on the processing

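Of the counts of called members and pairs, 100 recomputed under another setting and 215 recomputed without 1 library stayed within 1.5 times, and 6 and 3 did not. Many of these counts, those for FGF23, the interactions and Adriamycin nephropathy, were 0 in the main edgeR fit. A count that stays at 0 says little about how stable the results are. The count in anti-GBM mice given FGF23 went from 0 to 1 with DESeq2 (Etv5). With a required log2 fold change above 1, it went from 5 to 2 and from 4 to 2 in the anti-GBM comparison averaged and under vehicle. Leaving out a mouse moved the count of 4 under vehicle to between 2 (without NTS2 or NTS7) and 4, and that of 3 under FGF23 to between 1 (without NTS14) and 3. Of 18 called pairs, 1 remained in number in the anti-GBM experiment alone, 10 in the slices alone and 7 with the place of the mouse number removed (chosen after seeing the data). In the slices alone, Dusp5 with Dusp6 turned to -0.45 and Etv4 with Etv5 to -0.29.

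Small or noisy differences turned sign when 1 library was left out. Under FGF23, Egr1 ran from -0.77 to 0.44 and Fos from -0.50 to 1.52 in healthy C57BL/6 mice, Egr1 from -0.90 to 0.33 and Fos from -0.25 to 0.73 in healthy BALB/c mice, and Egr1 from -0.53 to 1.41 and Fos from -0.61 to 1.49 in Adriamycin nephropathy. Fos ran from -0.0046 to 0.54 in anti-GBM mice and Dusp6 from -0.085 to 0.0037 in slices. For anti-GBM disease, Spry1 ran from -0.042 to 0.10 on average, and Spry4 from -0.0059 to 0.32 and Spred1 from -0.088 to 0.086 under FGF23. The Egr1 difference between models ran from -0.31 to 0.57. None of these was called.

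A replicate block in the slices called 0 members, as did the edgeR fit without it. Members with an unadjusted p below 0.05 went from 0 to 3 with the block, namely Fos (0.64, SE 0.22, adjusted p = 0.796), Dusp5 (0.25, SE 0.10, adjusted p = 0.796) and Egr1 (0.53, SE 0.22, adjusted p = 0.809). The share of all genes below 0.05 with the block is not reported here (4.89% without it), so these 3 are not read as a response. Deviations of equal-numbered slices correlated at 0.105, 0.108 and 0.110 in 3 pairs and at -0.098 for V3 and F3, with a median of 0.107 against -0.011 for unequal numbers, and not every slice correlated best with its own number, so the numbers were not taken as pairs, although Dusp5 was higher with FGF23 in 4 of 4. For the mice, no paired analysis was possible because the labels do not tie the mouse numbers of the columns to replicate numbers, and the place of the mouse number was fitted instead in BALB/c mice. DESeq2 called more genes than edgeR over all genes, with 161 against 38 (FGF23 in anti-GBM mice), 48 against 5 and 7 against 0 (the 2 interactions), 16 against 0, 36 against 6 and 3 against 0 (FGF23 in healthy BALB/c mice, Adriamycin mice and slices), and 577 against 310, 158 against 53 and 265 against 112 (Adriamycin averaged, under vehicle and under FGF23). Depth limits Etv4 most, at 0 to 26 reads in healthy C57BL/6 mice.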

Other observations

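Genes among those that varied most like a member within groups are given here as a description, with Pearson r over the same 38 libraries and 13974 genes searched. Egr1 was most like Fos (r = 0.982), Junb (0.950) and Ier2 (0.926). Dusp5 was most like Klf11 (0.760), the growth factor gene Hbegf (0.755) and Klf10 (0.743). For Spry2 they were the matricellular gene Ccn1 (0.868), Spry1 (0.840) and Egr1 (0.828), for Spry4 they included Ier3 (0.816) and Ccn2 (0.740), and for Etv5 they were Rnase4 (0.774), Lipa (0.738) and its relative Etv1 (0.706).

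In Adriamycin nephropathy, averaged over treatments, 3 genes of the wider pathway lists passed the test, where 1.94% of all genes passed and 15% had an unadjusted p below 0.05. Of 20 tested immediate early genes, Klf2 rose by 0.42 (SE 0.10, adjusted p = 0.040 with edgeR) and Ier5 fell by 0.34 on the log2 scale (SE 0.07, adjusted p = 0.016). The cyclin D1 gene Ccnd1 rose by 0.30 (SE 0.07, adjusted p = 0.029). Of 10 other phosphatases, 15 receptors and adaptors, 17 members of the RAS to ERK chain and 10 ligands, 0 passed, with 3, 0, 3 and 2 at an unadjusted p below 0.05. Under FGF23, 0 genes of the 6 lists passed in any of the 5 settings with edgeR. In anti-GBM mice 2 of 22 immediate early genes and 4 of 13 other feedback inhibitors and targets had an unadjusted p below 0.05, as did 12.6% of all genes.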
